A study of Mus musculus with 12 samples.

Results

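Nascent RNA was followed through the day in mouse liver for 5 genes that set how the organ handles foreign chemicals. They comprised 3 receptors (Nr1i2, Nr1i3 and Ahr), the reductase Por and the heme enzyme Alas1. The genes were chosen by name for these roles, with earlier results of these data known. Each was found as 1 row in a table of 21490 gene symbols. All 5 were among the 6284 symbols that exceeded 6 reads per base pair (rpbp) in at least 1 library and were therefore tested.

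The study used Nascent-Seq, the sequencing of RNA still attached to chromatin in purified nuclei, to follow transcription itself over the day. Livers came from wild-type C57BL/6 mice 3 to 6 months old, male according to the methods, kept in 12 hr of light and 12 hr of darkness with no other treatment. Zeitgeber time (ZT) counts the hours from lights on, and the 6 groups were ZT0, ZT4, ZT8, ZT12, ZT16 and ZT20, with 2 libraries each (replicates 1 and 2). The methods describe the 12 libraries as a pair of independent daily series, but neither labels nor methods say how many animals each library holds, so p-values measure the spread between these libraries only.

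No group is a control. The deposited signal is coverage per base of exon, brought by the authors to a common read number per library, so that levels of different genes can be compared. It carries no read counts, and the depth behind each value is unknown from the file, though the study lists the uniquely mapped reads of each library. Summed signals of 6 hepatocyte markers ran from 427 rpbp (ZT16 replicate 2) to 1554 rpbp, against 14.7 to 49.7 rpbp for 5 macrophage markers and at most 24.2 rpbp for endothelial, stellate, cholangiocyte, lymphocyte or erythroid markers. All markers of each list were in the table except 1 of 5 for cholangiocytes and 2 of 4 for erythroid cells, and the labels' liver tissue was borne out by the hepatocyte list. In bulk liver, fewer cells of a type and less RNA per cell cannot be told apart.

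By way of background, the pregnane X receptor PXR (Nr1i2) and the constitutive androstane receptor CAR (Nr1i3) are nuclear receptors that pair with RXR and switch on genes for cytochrome P450 enzymes, conjugating enzymes and transporters. The aryl hydrocarbon receptor (Ahr) pairs with ARNT and drives a separate group of P450 genes in response to dioxin-like compounds. P450 enzymes carry heme and need electrons, which Por, the P450 oxidoreductase, passes on from NADPH. Alas1 makes the first and rate-limiting step of heme synthesis in liver, and heme itself represses it.

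RefSeq promoter windows (GRCm38.p6, a later build than the mm9 of the signal table) were matched by symbol for 4 of the 5 genes, Ahr being the exception. The 250 bases before the annotated start are shown because 3 of these 4 genes had their highest time-point mean at ZT12. Capitals mark matches, on either strand, to an E-box (CACGTG, bound by CLOCK and BMAL1), a D-box (TTATGTAA or TTATGCAA, bound by DBP, TEF and HLF), a nuclear receptor half-site (AGGTCA) or the AHR core site (GCGTG). The windows lie at chr16:38294825-38295074 (Nr1i2, minus strand), chr1:171213720-171213969 (Nr1i3, plus strand), chr5:135688895-135689144 (Por, plus strand) and chr9:106247955-106248204 (Alas1, minus strand, the farther upstream of its 2 listed starts).
Nr1i2: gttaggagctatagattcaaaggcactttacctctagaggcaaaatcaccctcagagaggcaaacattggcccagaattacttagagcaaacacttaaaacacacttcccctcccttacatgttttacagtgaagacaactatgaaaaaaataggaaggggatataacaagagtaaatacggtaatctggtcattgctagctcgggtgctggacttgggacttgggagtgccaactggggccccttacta
Nr1i3: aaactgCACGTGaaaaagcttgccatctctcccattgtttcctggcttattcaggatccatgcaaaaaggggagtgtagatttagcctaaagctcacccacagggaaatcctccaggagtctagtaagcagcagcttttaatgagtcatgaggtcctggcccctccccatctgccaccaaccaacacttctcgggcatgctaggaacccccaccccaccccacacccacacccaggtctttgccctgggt
Por: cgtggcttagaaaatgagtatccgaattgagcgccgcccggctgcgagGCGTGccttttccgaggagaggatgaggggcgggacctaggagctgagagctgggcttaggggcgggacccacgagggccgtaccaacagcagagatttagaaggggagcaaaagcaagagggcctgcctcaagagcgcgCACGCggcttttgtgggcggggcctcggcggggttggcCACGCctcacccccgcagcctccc
Alas1: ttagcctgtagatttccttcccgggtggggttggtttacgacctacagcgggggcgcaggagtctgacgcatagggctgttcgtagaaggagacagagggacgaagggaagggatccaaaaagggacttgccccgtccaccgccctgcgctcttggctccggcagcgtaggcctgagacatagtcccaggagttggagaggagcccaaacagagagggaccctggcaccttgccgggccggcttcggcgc
The Nr1i3 window held 1 E-box, from -244 to -239 relative to the start. The Por window held 3 AHR core sites, beginning at -202, -62 and -24. No letters of the 4 motifs were found in the Nr1i2 window or in the Alas1 window shown, and the window of the second Alas1 start held 1 AHR core site. Among 32851 windows of the same length, 6.02% held the E-box, 1.5% a D-box, 14.0% the half-site and 28.2% the AHR core site. These matches describe letters and say nothing of binding.

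On the mm9 build, all 5 genes are annotated as protein-coding. Nr1i2 spans chr16:38248435-38294910 on the minus strand, Nr1i3 spans chr1:173144101-173149324 on the plus strand, and Ahr spans chr12:36182651-36219661 on the minus strand. Por spans chr5:136165084-136211195 on the plus strand and Alas1 spans chr9:106136260-106150187 on the minus strand.

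The 5 genes differed widely in level. Nr1i3 was the highest, at 152 ± 67.8 rpbp (mean ± SD, n = 12 libraries), and only 0.684% of the tested symbols had a higher mean. Alas1 followed at 107 ± 94.4 rpbp, with 1.08% of the tested symbols above it. Nr1i2 averaged 27.0 ± 11.2 rpbp and Por 20.8 ± 18.2 rpbp. Ahr was the lowest of the 5 at 9.43 ± 2.96 rpbp, with 36.4% of the tested symbols above it. This order did not hold in each library: Nr1i3 exceeded Alas1 in 9 of 12, Alas1 exceeded Nr1i2 in 9, Nr1i2 exceeded Por in 9 and Por exceeded Ahr in 8. Nr1i2, Nr1i3 and Alas1 passed 6 rpbp in all 12 libraries, Ahr in 10 and Por in 9.

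**Figure D1:**
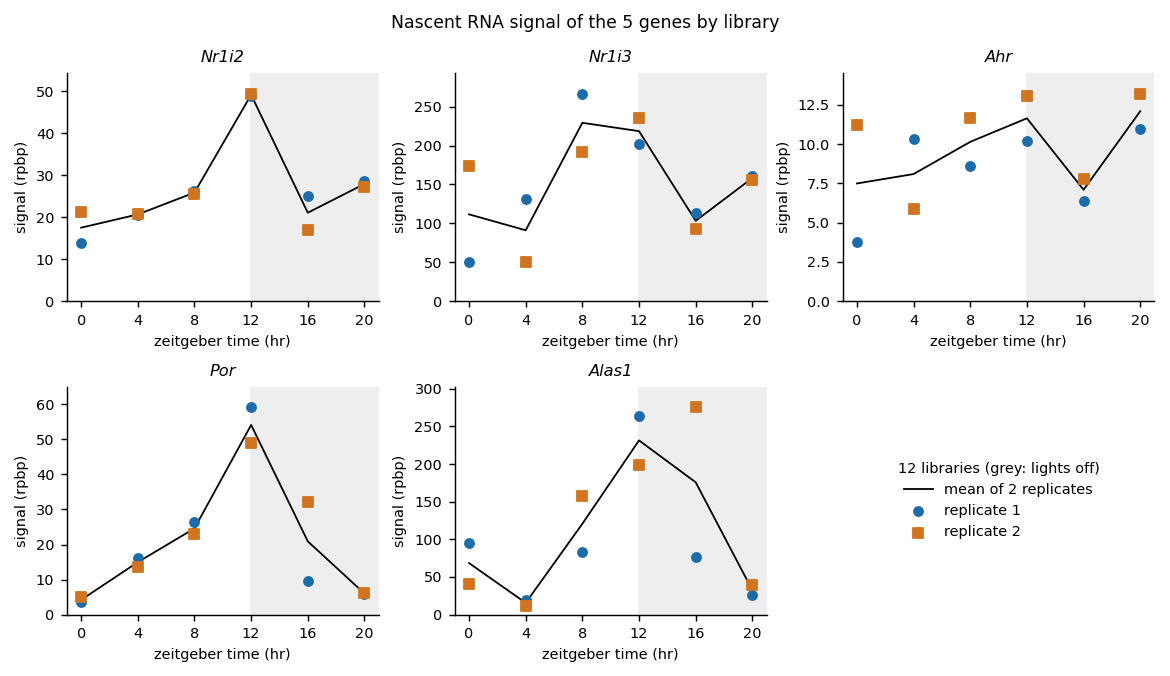
Nascent RNA signal of the 5 genes (vertical axes, rpbp from 0) against zeitgeber time in hours (horizontal axes). Points are single libraries of replicate 1 or 2, lines join the means of 2 replicates and grey marks lights off. The signals of Nr1i2 and Por are highest in both ZT12 libraries, those of Alas1 are lowest in both ZT4 libraries, and the replicates of Nr1i3 and Ahr lie far apart at ZT0 and ZT4.

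Por had the clearest daily course. Its signal in replicates 1 and 2 was 3.5 and 4.9 rpbp at ZT0, 16.2 and 13.7 at ZT4, 26.3 and 22.9 at ZT8, 59.2 and 49.1 at ZT12, 9.6 and 32.2 at ZT16, and 5.9 and 6.1 at ZT20. Both ZT12 libraries were above the other 10 and both ZT0 libraries below them, so the reductase climbed through the light phase to a mean of 54.2 ± 7.14 rpbp (SD, n = 2) at lights off, 12.9 times the 4.20 ± 0.99 rpbp at ZT0. Down from ZT12, the order of means was ZT8, ZT16, ZT4, ZT20 and ZT0, and the replicates of ZT8 and ZT16, and of ZT16 and ZT4, overlapped. The ZT16 libraries stood 3.35-fold apart, and 4.30% of the tested symbols had a larger ratio there.

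Alas1 varied as strongly but with more spread between replicates. Its signal was 95.7 and 41.0 rpbp at ZT0, 19.5 and 11.5 at ZT4, 83.3 and 157.9 at ZT8, 264.3 and 198.4 at ZT12, 76.0 and 275.4 at ZT16, and 25.7 and 39.0 at ZT20. The ZT4 libraries were below the other 10, and the highest single value came from ZT16 replicate 2, not from ZT12. The mean at ZT12, 231 ± 46.6 rpbp, was 14.9 times the 15.5 ± 5.66 rpbp at ZT4. The ranges of ZT12, ZT16, ZT8 and ZT0 overlapped from one to the next in that order, while ZT20 and ZT4 lay clear below. The replicates of ZT16 stood 3.62-fold apart (3.47% of tested symbols had a larger ratio) and those of ZT0 2.33-fold (2.18%).

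Nr1i2 was high at a single time point. It gave 13.8 and 21.2 rpbp at ZT0, 20.5 and 20.8 at ZT4, 26.3 and 25.4 at ZT8, 48.9 and 49.3 at ZT12, 25.1 and 17.0 at ZT16, and 28.6 and 27.2 at ZT20. The ZT12 pair, at 49.1 ± 0.283 rpbp, stood above every other library, and the highest value outside ZT12 was that of ZT20 replicate 1. The ratio of ZT12 to the lowest mean, 17.5 ± 5.23 rpbp at ZT0, was 2.81. Differences between time points took 95.5% of the variance over the 12 libraries, a share exceeded by 0.827% of the tested symbols (median 63.3%), against 91.3% for Por, 73.0% for Alas1, 71.7% for Nr1i3 and 48.7% for Ahr.

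Both ZT12 libraries exceeded the other 10 for 2 of the 5 genes, Nr1i2 and Por. Over all tested symbols this held for 7.67%, the highest share of any time point (ZT8, the next, had 288 symbols against 482 for ZT12). Both ZT0 libraries were lowest for Por, as for 1.34% of tested symbols, and both ZT4 libraries for Alas1, as for 0.907%. These orderings were noticed after the values were seen and are given as a description.

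Nr1i3 was abundant throughout, and its replicates disagreed in the hours after lights on. It gave 50.1 and 173.1 rpbp at ZT0, 131.5 and 50.8 at ZT4, 266.2 and 192.1 at ZT8, 202.1 and 234.8 at ZT12, 113.6 and 93.0 at ZT16, and 160.2 and 156.3 at ZT20. The means at ZT8 (229 ± 52.4 rpbp) and ZT12 (218 ± 23.1 rpbp) were the highest, but in the order ZT8, ZT12, ZT20, ZT0, ZT16, ZT4 the only neighbours whose replicates did not overlap were ZT12 and ZT20. The 3.46-fold gap at ZT0 was exceeded by 0.827% of tested symbols and the 2.59-fold gap at ZT4 by 2.18%.

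Ahr was the lowest of the 5 genes and showed no order of time points beyond the spread. It gave 3.8 and 11.2 rpbp at ZT0, 10.3 and 5.9 at ZT4, 8.6 and 11.7 at ZT8, 10.2 and 13.1 at ZT12, 6.4 and 7.8 at ZT16, and 11.0 and 13.2 at ZT20. All 5 pairs of neighbours in the order of its means overlapped. The ZT0 replicates were 2.95-fold apart, a gap that 1.15% of the tested symbols exceeded, and the lowest of its 12 values was ZT0 replicate 1, as it was for Nr1i3, Nr1i2 and Por.

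Rhythm was scored with F24, the share of the variance over the 12 values that a 24-hr cosine takes up, and its one-sided permutation p was drawn from 100000 reorderings of a gene's values. A gene was called rhythmic at a permutation p under 0.05, an F24 over 0.45 and a ratio of highest to lowest value over 1.5, the limits set in the methods of the study. Of the 5 genes, 3 were called rhythmic, against 15.1% of all tested symbols. The study had already named Por and Alas1 among clock-controlled genes rhythmic in both nascent RNA and mRNA. Por had an F24 of 0.734 (permutation p = 0.00092) with a phase of ZT11.3, and 2.32% of tested symbols had a higher F24. Alas1 had an F24 of 0.587 (permutation p = 0.0217) and a phase of ZT12.8. Nr1i2 had an F24 of 0.461 (permutation p = 0.0421), just over the limit of 0.45, with a phase of ZT12.3.

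Nr1i3 (F24 0.324, permutation p = 0.175) and Ahr (F24 0.0541, permutation p = 0.774) were not called. The median F24 over all tested symbols was 0.222. After Benjamini-Hochberg adjustment over the 6284 symbols, none of the 5 genes had a permutation p under 0.05 (Por 0.0704, Alas1 0.216, Nr1i2 0.284, Nr1i3 0.497, Ahr 0.904), against 0.700% of tested symbols. At the unadjusted p, 3 of 5 passed, against 16.4% of tested symbols.

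**Figure D2:**
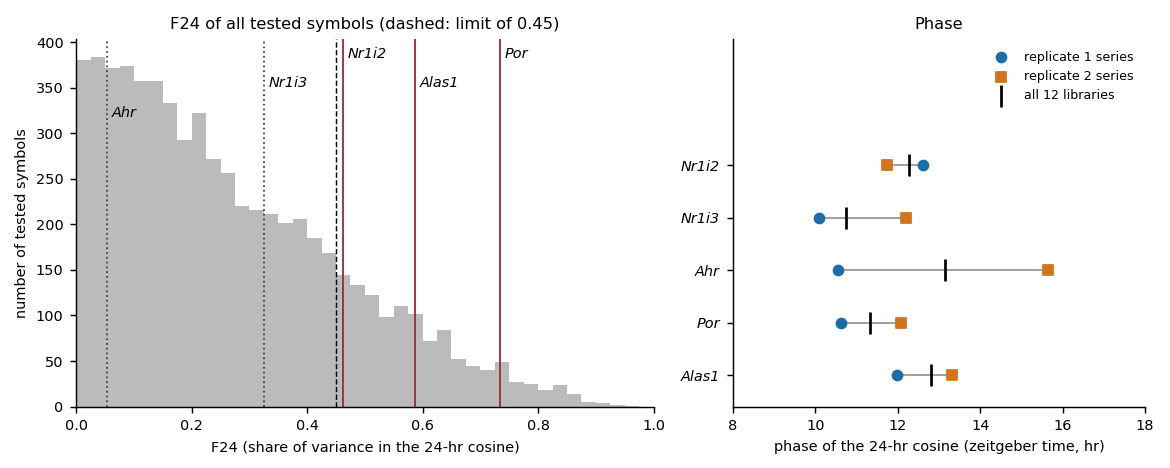
Left, number of tested symbols (vertical axis) by F24 (horizontal axis, a share from 0 to 1), with a line for each of the 5 genes, solid for those called rhythmic and dotted for the others. Right, phase of the 24-hr cosine in zeitgeber hours for the replicate 1 series (circles), the replicate 2 series (squares) and all 12 libraries (bars); the phases of Nr1i2 differ by 0.885 hr between the series and those of Ahr by 5.09 hr.

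The separate series gave similar phases for the 3 genes called rhythmic. These genes were called on a cosine fitted to both series together, which series far apart in phase would have weakened. The similarity is therefore partly set by the choice of genes and is given as a description. The replicate 2 phase of Nr1i2 rests on an F24 of 0.319. For Por the phase was ZT10.6 in the replicate 1 series and ZT12.1 in the replicate 2 series, for Alas1 ZT12.0 and ZT13.3, and for Nr1i2 ZT12.6 and ZT11.7. With 6 values in a series, the exact test over all 720 orders cannot give a p below 0.0167, and none of the 5 genes passed within a series. The exact p was 0.1 and 0.05 for Por, 0.367 and 0.167 for Alas1, and 0.15 and 0.7 for Nr1i2.

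The 3 calls did not rest on the data equally. Por was called rhythmic whichever single library was left out, with permutation p between 0.00011 and 0.00428. Alas1 was called in 11 of these 12 fits and lost the call without ZT12 replicate 1 (permutation p = 0.0568). Nr1i2 kept the call only without ZT16 replicate 1, ZT20 replicate 1, ZT8 replicate 2 or ZT16 replicate 2. Without ZT0, ZT4, ZT8 or ZT12 replicate 1, or ZT0, ZT4, ZT12 or ZT20 replicate 2, its permutation p lay between 0.0539 and 0.145. The Nr1i2 call was also lost on log2(rpbp + 1) values (permutation p = 0.0626) and when values were centred and permuted within libraries of the same number of lanes (permutation p = 0.0935), a check made because both libraries of ZT8 and ZT20 were run in 2 lanes and the others in 1. All 3 calls held with rescaled libraries and with the trend in GC content removed. Other signal thresholds could not change them, because a call uses only a gene's own values and all 3 stayed tested.

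Limma's moderated F-test on log2(rpbp + 1) asked whether the 6 time points differed in any way, cosine or not. The same 3 genes passed at a Benjamini-Hochberg adjusted p under 0.05, against 7.65% of tested symbols: Por (adjusted p = 0.00986), Alas1 (adjusted p = 0.0210) and Nr1i2 (adjusted p = 0.0325). By the same limma test Nr1i3 (adjusted p = 0.221) and Ahr (adjusted p = 0.459) did not pass. Leaving out single libraries, Por passed in all 12 limma fits. Alas1 missed the threshold without ZT12 replicate 1, ZT12 replicate 2 or ZT4 replicate 2 (limma adjusted p between 0.0554 and 0.0626). Nr1i2 missed it when any one of the ZT4, ZT12 or ZT20 libraries, ZT0 replicate 1 or ZT8 replicate 2 was left out (limma adjusted p between 0.0560 and 0.122).

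Time points 12 hr apart gave the sizes of these differences, as limma contrasts on log2(rpbp + 1), a scale that understates the change of genes with low values. From ZT0 to ZT12, 2 of the 5 genes were called lower at ZT0 (limma adjusted p under 0.05), against 2.85% of tested symbols. The estimates of the other genes were also lower at ZT0. The log2 difference, ZT0 minus ZT12, was -3.41 ± 0.42 (SE; 95% interval -4.34 to -2.49; limma adjusted p = 0.00283) for Por. For Nr1i2 it was -1.47 ± 0.24 (interval -2.00 to -0.94; limma adjusted p = 0.00882). Alas1 (-1.85 ± 0.59, interval -3.17 to -0.53, limma adjusted p = 0.117), Nr1i3 (-1.21 ± 0.53, interval -2.40 to -0.03, limma adjusted p = 0.261) and Ahr (-0.72 ± 0.40, interval -1.60 to 0.17, limma adjusted p = 0.387) did not pass, and their intervals admit large differences as well as small ones. Without ZT0 replicate 1 the adjusted p of this limma contrast was 0.0505 for Por and 0.0943 for Nr1i2, and without ZT12 replicate 1 or 2 it was 0.0625 or 0.0537 for Nr1i2. The differences that did not pass moved as well. Without ZT0 replicate 1 or 2 the log2 difference was -0.33 or -2.10 for Nr1i3, -0.04 or -1.39 for Ahr and -2.45 or -1.25 for Alas1, and none of these passed.

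From ZT4 to ZT16, 1 of the 5 genes was called lower at ZT4 (limma adjusted p under 0.05), against 0.764% of tested symbols. Alas1 had a log2 difference, ZT4 minus ZT16, of -3.19 ± 0.59 (interval -4.51 to -1.87; limma adjusted p = 0.0278), while the median over all tested symbols was 0.20 in the other direction. The call was lost without ZT4 replicate 1 (limma adjusted p = 0.104), ZT4 replicate 2 (0.172) or ZT16 replicate 2 (0.0840), where the difference was -3.54, -2.83 and -2.27. It was also lost with no threshold on the signal (limma adjusted p = 0.105) and with the GC trend removed (limma adjusted p = 0.0549), with differences of -3.19 and -3.35. The other 4 genes differed by -0.33 to 0.13 on the log2 scale, none past the threshold, with intervals as wide as -1.51 to 0.86 for Nr1i3.

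Between ZT8 and ZT20, limma called none of the 5 genes, against 1.58% of tested symbols in either direction. At the unadjusted p, Por and Alas1 passed, against 12.6% of tested symbols. Por had a log2 difference, ZT8 minus ZT20, of 1.87 ± 0.42 (interval 0.94 to 2.79; limma adjusted p = 0.0570), and Alas1 had 1.82 ± 0.59 (interval 0.50 to 3.15; limma adjusted p = 0.190). The limma adjusted p of Por was 0.00292 without ZT16 replicate 1 or 2, and in the same fits that of Alas1 for ZT0 minus ZT12 was 0.0396. All 3 contrasts compare time points with the same number of lanes.

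**Figure D3:**
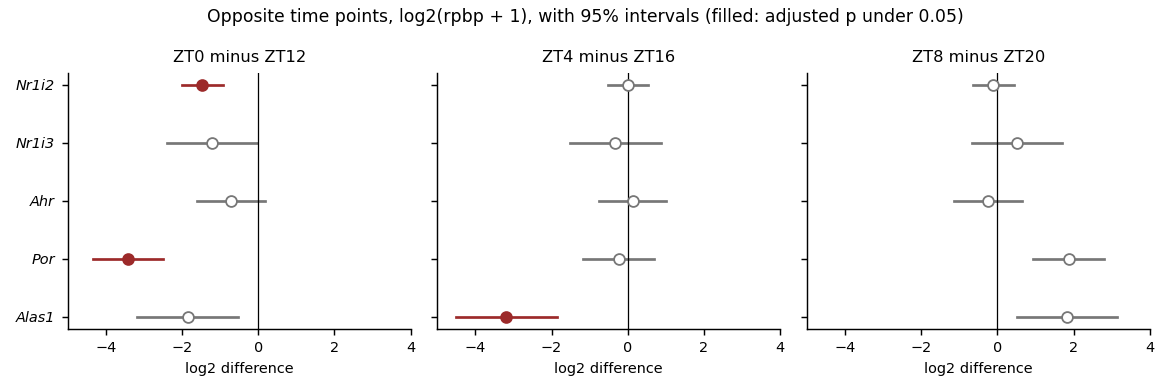
Log2 differences between time points 12 hr apart (horizontal axes, on log2(rpbp + 1)) for the 5 genes (vertical axis), from limma. Points are estimates and lines their 95% intervals, filled where the adjusted p is under 0.05, which holds for Por and Nr1i2 in ZT0 minus ZT12 and for Alas1 in ZT4 minus ZT16.

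Levels of the 5 genes also varied together across libraries to different degrees. Over the 12 libraries, which share scaling and depth between genes, Pearson's r of log2(rpbp + 1) was 0.82 for Nr1i3 and Ahr, both of which were low in ZT0 replicate 1 and ZT4 replicate 2. It was 0.71 for Nr1i2 and Nr1i3, 0.63 for Nr1i2 and Ahr, 0.61 for Nr1i2 and Por, and 0.59 for Por and Alas1. The lowest of the 10 pairs was Ahr and Alas1, at 0.07.

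The summed hepatocyte markers also differed between replicates. They reached 564 rpbp in ZT0 replicate 1 and 1164 rpbp in ZT0 replicate 2. At ZT0, Nr1i2, Nr1i3, Ahr and Por were higher in replicate 2 and Alas1 in replicate 1. At ZT4 the sums were 911 and 1001 rpbp. There Nr1i3, Ahr, Por and Alas1 were higher in replicate 1, and Nr1i2 was nearly level. At ZT16, where Ahr, Por and Alas1 were higher in replicate 2 and Nr1i2 and Nr1i3 in replicate 1, the sums were 668 and 427 rpbp. The part of these libraries' differences in the results was not tested.

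Neighbouring genes bear on what some values measure. Reads were assigned without regard to strand, and Nr1i3 shares 1391 bases at its 3' end with Tomm40l, on the opposite strand. Tomm40l, which codes for a mitochondrial import protein, ran from 33.3 to 199.2 rpbp and followed Nr1i3 across the 12 libraries (r = 0.991). The ratio of Nr1i3 to Tomm40l stayed between 1.31 and 1.63. Signal of the overlapping genes cannot be told apart here, so the Nr1i3 values may hold Tomm40l reads and the reverse. The next gene on that side, Apoa2, 5896 bases away, ran from 20.8 to 127.5 rpbp with an F24 of 0.0769.

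**Figure D4:**
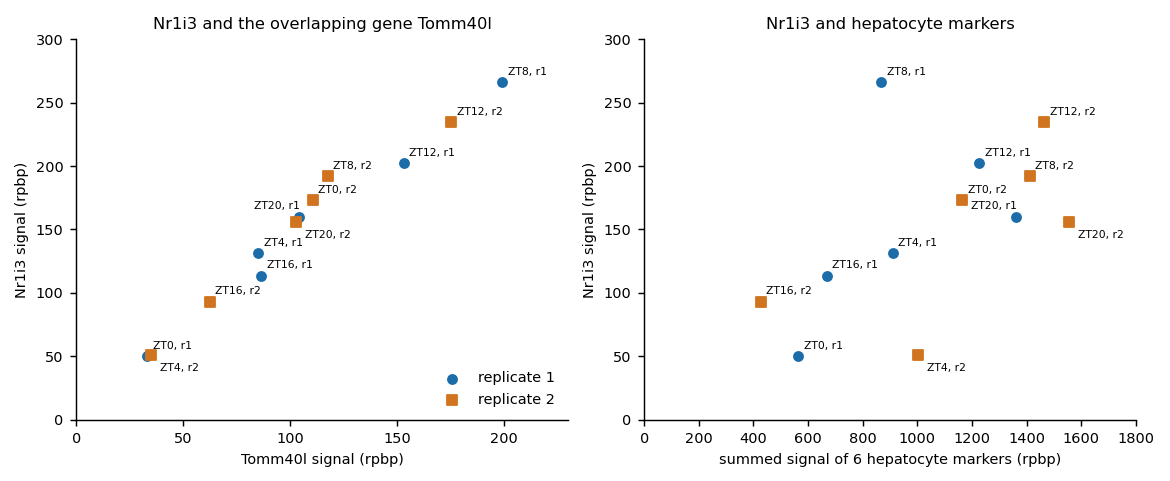
Nr1i3 signal (vertical axes, rpbp) in the 12 libraries against the signal of the overlapping gene Tomm40l (left, rpbp) and the summed signal of 6 hepatocyte markers (right, rpbp). Circles are replicate 1 and squares replicate 2, labelled by time point; Nr1i3 and Tomm40l lie close to a line (r = 0.991), with ZT0 replicate 1 and ZT4 replicate 2 at the bottom.

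Around Por, the gene 165 bases downstream on the opposite strand, Tmem120a, was called rhythmic as well (F24 0.594, permutation p = 0.0199), at 2.6 to 7.6 rpbp. Rhbdd2, 42838 bases upstream of Por, ran from 1.9 to 14.6 rpbp, with a phase of ZT11.8 and an r of 0.928 with Por, and was called rhythmic too (F24 0.581, permutation p = 0.00183). Mdh2, on the far side, was not (F24 0.211). Among the genes within about the same distance of Alas1, Wdr82 was the only one tested, and its F24 was 0.00575. Gsk3b, 2270 bases from Nr1i2, had an F24 of 0.128.

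For each of the 5 genes the 3 tested symbols at other loci with the highest Pearson's r of log2(rpbp + 1) over the 12 libraries were listed. Nearest to Por were IL15ra (r = 0.962), a subunit of the interleukin 15 receptor, Apex2 (r = 0.960), a DNA repair nuclease, and Ngef (r = 0.932). All 3 were called rhythmic, with phases of ZT10.4, ZT10.9 and ZT11.0, and all had their highest mean at ZT12 and their lowest at ZT0. Nearest to Alas1 were BC016495 (r = 0.910), Mbnl2 (r = 0.910), a splicing regulator, and C76566 (r = 0.902).

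Nearest to Nr1i2 were AK016225 (r = 0.956), Mknk2 (r = 0.950), a kinase that acts on the translation factor eIF4E, and Nadk (r = 0.944), which makes NADP. Their highest means were all at ZT12. Nearest to Nr1i3 were Gsta3 (r = 0.912), a glutathione transferase, Prodh (r = 0.877), which oxidises proline, and Ces3 (r = 0.849), a carboxylesterase. Nearest to Ahr were AK143982 (r = 0.918) and AK162906 (r = 0.859), which overlap each other, and LOC382044 (r = 0.857).

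Of 11 other listed genes of heme synthesis (8 enzymes and 3 carriers), 9 were tested. Of these 1 was called rhythmic, against 15.1% of all tested symbols, and limma's F-test called none, against 7.65%. At the unadjusted p, limma's F-test passed 1, against 27.6% of tested symbols. The median F24 of the 9 was 0.259. The gene called was Abcb6, a porphyrin transporter, named after its values were seen, at 4.3 to 9.8 rpbp with a phase of ZT2.96 (permutation p = 0.0469).

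Averaged over the 12 libraries, the enzymes named here were below Alas1, the highest of them being Alad at 14.1 ± 4.36 rpbp. In ZT4 replicate 2, where Alas1 was at 11.5 rpbp, Alad (11.8 rpbp), Ppox (11.8 rpbp) and Fech (12.7 rpbp) were above it. Alas2, the erythroid form of the same enzyme, ran from 8.5 to 14.4 rpbp. Alad, the second enzyme of the pathway, ran from 5.4 to 19.7 rpbp (F24 0.240). Uros gave 4.2 to 8.3 rpbp (F24 0.303) and Urod, under the threshold in all libraries, 2.4 to 5.6 rpbp. Cpox gave 5.1 to 9.9 rpbp (F24 0.430), Ppox 6.8 to 11.8 rpbp (F24 0.238), and Fech, which inserts iron to complete heme, 6.5 to 12.7 rpbp (F24 0.359). None of the enzymes named here had a highest value over 3.65 times its lowest, against 23.9 times for Alas1. The mitochondrial carriers Slc25a38 (2.6 to 6.7 rpbp) and Slc25a39 (8.4 to 15.7 rpbp) were not called rhythmic.

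Of 7 genes for heme breakdown and sensing, 5 were tested. None was called rhythmic, against 15.1% of all tested symbols, though 1 passed the permutation p alone (16.4% of tested symbols). Limma's F-test called 2, against 7.65%, and 2 passed it at the unadjusted p (27.6%). Hmox1, the inducible heme oxygenase, stayed between 2.2 and 6.1 rpbp (F24 0.321, permutation p = 0.168). The 2 genes called by limma, named after their values were seen, were Hmox2 and Hpx. Hmox2, the constitutive heme oxygenase, had its highest mean at ZT12, 26.0 ± 9.26 rpbp against 8.05 ± 0.0707 rpbp at ZT0 (limma adjusted p = 0.0443). Hpx, the plasma protein hemopexin that binds free heme, reached 130 ± 27.2 rpbp at ZT16 against 33.5 ± 3.68 rpbp at ZT4 (limma adjusted p = 0.00508).

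Of 22 listed target genes of PXR and CAR, 20 were in the table (Akr1b7 and Gsta1 were not matched) and 14 were tested. Of these 5 were called rhythmic, against 15.1% of all tested symbols, and limma's F-test called 1, against 7.65%. At the unadjusted p, 5 passed the permutation test (16.4% of tested symbols) and 10 passed limma's F-test (27.6%). The median F24 of the 14 was 0.347. Cyp2a5, a coumarin hydroxylase, passed both tests (F24 0.480, permutation p = 0.0109, limma adjusted p = 0.0365). It averaged 8.45 ± 4.31 rpbp at its highest time point, ZT8, falling to 0.150 ± 0.0707 rpbp by ZT16. Only its ZT8 replicate 1 value (11.5 rpbp) exceeded 6 rpbp, against 5.4 rpbp in ZT8 replicate 2. The gene was therefore tested only through its highest time point, and these passes add no support for that peak.

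The other 4 called rhythmic were named after their values were seen and had scattered phases: Cyp3a13 at ZT13.3, the bile salt and conjugate pumps Abcc2 at ZT6.15 and Abcc3 at ZT1.95, and the glutathione transferase Gstm1 at ZT23.6. Cyp3a11, the classical PXR target, ranged from 3.5 to 98.8 rpbp and was not called (F24 0.0848, permutation p = 0.719, limma adjusted p = 0.0539). Its highest mean was at ZT20 (73.2 ± 36.1 rpbp) and its lowest at ZT12 (6.30 ± 2.12 rpbp), the time at which Nr1i2 was highest. This low was not set apart from other time points. The ZT12 libraries gave 7.8 and 4.8 rpbp, ZT0 replicate 1 gave 5.8 and ZT16 replicate 2 gave 3.5. Cyp3a13, by contrast, had its highest mean at ZT12 and its lowest at ZT0, as Nr1i2 did. Whether either gene follows Nr1i2 was not tested. Cyp2b10, the classical CAR target, stayed at or below 1.7 rpbp in all 12 libraries, under the threshold. Reads were kept only where they mapped uniquely, so signals of genes with close copies, among them the Cyp2a, Cyp2b and Cyp3a families, are uncertain.

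Of 8 AHR target genes, 2 were tested and neither was called by the rhythm score or by limma, against 15.1% and 7.65% of tested symbols. At the unadjusted p, none passed the permutation test and both passed limma's F-test, as did 27.6% of tested symbols. Cyp1a1, the classical target, was at 0.2 rpbp or less in every library. Cyp1a2, which is expressed in liver without an inducer, ranged from 1.5 to 31.4 rpbp with its highest mean at ZT4 (22.4 ± 12.7 rpbp), and was not called (F24 0.370, permutation p = 0.114, limma adjusted p = 0.120).

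Of 13 listed partners of the receptors, 8 were tested. None was called rhythmic, against 15.1% of all tested symbols, though 1 passed the permutation p alone (16.4% of tested symbols). Limma's F-test called 1, against 7.65%, and 4 passed it at the unadjusted p (27.6%). Rxra, the shared partner of PXR and CAR, ran from 36.5 to 86.3 rpbp with its highest mean at ZT12 (82.8 ± 4.95 rpbp), without passing either test (F24 0.342, permutation p = 0.158, limma adjusted p = 0.0671). Arnt, the partner of AHR, ran from 7.6 to 12.7 rpbp (F24 0.340, permutation p = 0.160, limma adjusted p = 0.610).

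All 5 listed genes that pass electrons to P450 enzymes beside Por were tested, and none was called by the rhythm score or by limma. The shares of all tested symbols called by these tests were 15.1% and 7.65%. At the unadjusted p, none passed the permutation test (16.4% of tested symbols) and 3 passed limma's F-test (27.6%). Cyb5, cytochrome b5, which can deliver the second electron of the P450 cycle, ran from 15.6 to 78.3 rpbp with a highest mean at ZT8 (71.6 ± 9.48 rpbp) and an F24 of 0.473 (permutation p = 0.0576, limma adjusted p = 0.172).

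**Figure D5:**
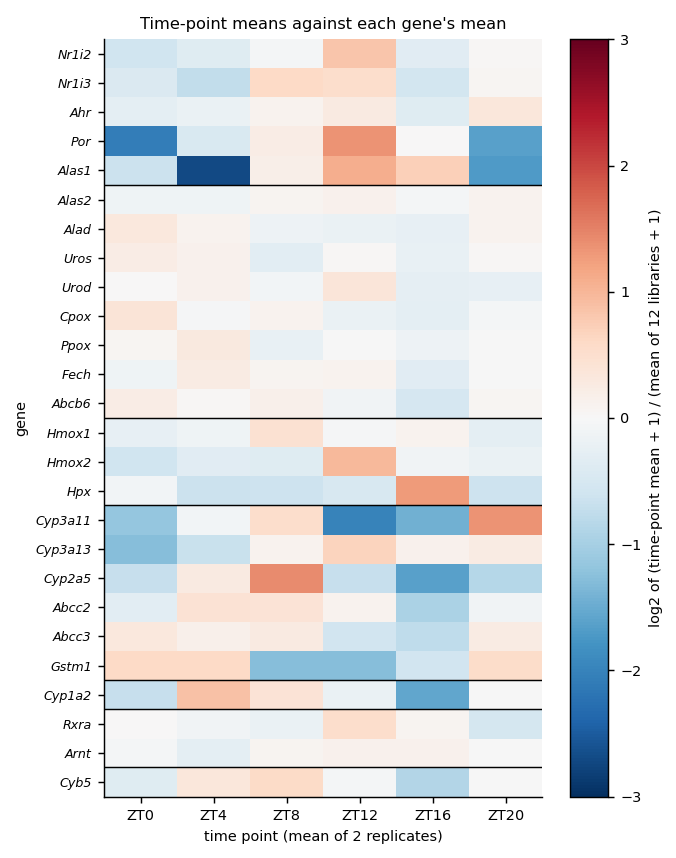
Time-point means (horizontal axis, mean of 2 replicates) of the 5 genes and of listed genes (vertical axis), as log2 of the mean plus 1 over the mean of all 12 libraries plus 1. Black lines separate the 5 genes, heme synthesis, heme breakdown, PXR and CAR targets, the AHR target Cyp1a2, receptor partners and Cyb5; the heme synthesis enzymes are pale, while Por is low at ZT0 and ZT20 and Alas1 at ZT4 and ZT20.

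Of 14 listed factors known to act on the 5 genes, 13 were tested. Of these 9 were called rhythmic (15.1% of all tested symbols), 4 had an adjusted permutation p under 0.05 (0.700%) and limma's F-test called 8 (7.65%). Their median F24 was 0.673. The list includes core clock genes, and the study places almost all clock genes in its set with rhythmic nascent RNA and mRNA. The counts for this list were therefore largely set by its choice. The D-box factors Dbp and Tef had phases of ZT8.38 and ZT10.1. The repressors Nr1d1 and Nr1d2 (REV-ERB alpha and beta), which are known to act on Alas1, had phases of ZT6.22 and ZT8.54. The activators Arntl (BMAL1), Clock and Npas2 had phases of ZT22.5, ZT22.5 and ZT22.8.

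Foxo1, an insulin-controlled activator of Alas1, had a phase of ZT12.7, and its mean was 17.7 ± 1.06 rpbp at ZT12 against 6.10 ± 0.566 rpbp at ZT0 (F24 0.591, permutation p = 0.00191, limma adjusted p = 0.0174). Ppara was called rhythmic (phase ZT8.08, permutation p = 0.0154) but not by limma (adjusted p = 0.138), and is named after its values were seen. Hlf, Ppargc1a, Hnf4a and Nr3c1 were called by neither test. The time order of these signals is a description of 12 libraries, and its bearing on the 5 genes was not tested.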

How the data were processed

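Nascent-Seq signal was measured in 12 mouse liver libraries (6 time points, 2 replicates), grouped by the sample labels. The authors aligned reads to mm9 (the submitters' notes name CASAVA 1.7 and TopHat), kept uniquely mapped reads, merged the lanes of a library and deposited a signal in reads per base pair of merged exons, scaled to a common read number and rounded to 1 decimal. Each gene symbol has 1 value per library. The 3 deposited columns of the authors' own rhythm score, phase and p-value were not used.

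All values were read as deposited. Strand, gene class and exon GC content came from GENCODE M1 (NCBIM37, the same build as mm9), which matched 14195 symbols. A symbol entered the tests if any library exceeded 6 rpbp, with 100000 permutations for F24 and limma 3.58.1 (R 4.3.3) for time points, both with Benjamini-Hochberg adjustment over all tested symbols, after a check on simulated data. The signal is not a count, so no count model was fitted. The 2 replicates per time point limit the precision. Alternatives were other thresholds, scaling by the median ratio, removal of the trend in 20 bins of GC content, log2 values, a replicate block, lanes, single series and leaving out each library. The genes, the pathway lists, the markers and the tests were chosen with earlier results of these data known. Listed genes were named by a rule: Cyp3a11, Cyp2b10, Cyp1a1, Cyp1a2, Hmox1, Cyb5, Rxra, Arnt and the heme synthesis genes whatever they did, others if called rhythmic and by limma's F-test. Some listed genes are not reported here.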

Additional observations from a re-analysis of the deposited data

How the results depend on the processing

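Of the 5 genes, 3 were called rhythmic with all libraries, 1 to 3 when a single library was left out, and 0 in either series alone, where 6 values limit the test. The number of rhythmic symbols was 508 above 12 rpbp, 2211 with no threshold, and 260 and 171 in the replicate 1 and 2 series, as fewer or more symbols and fewer libraries were tested. It ran from 806 to 1272 when single libraries were left out. In the replicate 1 and 2 series alone, F24 was 0.640 and 0.319 for Nr1i2, 0.686 and 0.879 for Por, and 0.428 and 0.814 for Alas1. For Nr1i2, F24 was 0.4502 and 0.449 on log2 values with 1 or 0.1 added and 0.462 within lanes, and the call was lost. When single libraries were left out, F24 ran from 0.343 to 0.676 for Nr1i2, 0.223 to 0.451 for Nr1i3, 0.00940 to 0.157 for Ahr, 0.677 to 0.853 for Por and 0.502 to 0.713 for Alas1.

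Limma's F-test called 133 symbols with no threshold and 120 in the 1-lane time points alone, and 170 to 638 when single libraries were left out. With no threshold its adjusted p was 0.0790 for Nr1i2, 0.0550 for Por and 0.0962 for Alas1. In the 1-lane time points it was 0.0719 for Nr1i2 and 0.0540 for Alas1, and with the GC trend removed it was 0.0514 for Alas1. When single libraries were left out, the adjusted p of the limma F-test ran from 0.0176 to 0.122 for Nr1i2, 0.0751 to 0.354 for Nr1i3, 0.123 to 0.643 for Ahr, 0.000331 to 0.0435 for Por and 0.00560 to 0.0626 for Alas1. Of the contrasts, ZT4 minus ZT16 called 84 symbols above 12 rpbp and 24 with no threshold, and ZT8 minus ZT20 called 45 with no threshold. Leaving out single libraries gave 26 to 388 symbols for ZT0 minus ZT12, 22 to 253 for ZT4 minus ZT16 and 4 to 166 for ZT8 minus ZT20. The Ahr difference, ZT4 minus ZT16, which passed in no setting, turned to -0.072 with rescaled libraries and -0.16 with the GC trend removed. Leaving out single libraries, ZT4 minus ZT16 ran from -0.27 to 0.27 for Nr1i2, -1.003 to 0.35 for Nr1i3, -0.23 to 0.49 for Ahr and -1.06 to 0.59 for Por, each changing sign. Nr1i3 and Ahr were called in none of the settings by the rhythm score or by limma.

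The replicate numbers were not taken to pair the libraries, since the labels name no shared day or litter and not every pair of time points passed the check: the correlation of replicate differences between time points had a median of 0.0734 over 15 pairs of time points (-0.117 to 0.320), and 5 were over 0.1, among them the 3 pairs of ZT8, ZT16 and ZT20. A fit with the replicate block called 977 symbols rhythmic and 455 by limma's F-test. Under the block the F24 of Nr1i2 was 0.462 (permutation p = 0.0642) and no other call on the 5 genes changed. Where leaving out a library left 1 at its time point, that library was assumed to vary like the other groups. The signal itself carries no depth, and the library depths that the study lists were not used here. This limits how low values of Ahr, and of Por at ZT0 and ZT20, can be read.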
